A study of Mus musculus with 12 samples.

Results

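The genes around Tespa1 on mouse chromosome 10 were followed in LSKs (lineage-negative, Sca-1+ c-Kit+ bone marrow cells, the fraction that holds the hematopoietic stem cells) of wild type and Tespa1-/- mice. A gene was taken as a neighbour when its midpoint lay at or beyond 125.34 Mb, which is within 5 Mb of the Tespa1 midpoint on the centromeric side and reaches the end of the chromosome on the other, and when its mean over the 12 libraries was at least 10 counts. Of 53465 genes in the table, 255 lay in this region, 171 of them fell below the count limit, 10 of the remaining 84 were left out by name (Tespa1 itself and genes of other families or pathways), and 74 stayed. Of these 74 neighbours, 64 are protein-coding, 5 are lincRNAs, 2 are processed pseudogenes, 2 are processed transcripts and 1 is a snoRNA. The members were thus chosen by position, by their mean count over all libraries and by the names left out. Just inside the position limit lay Lrig3 (midpoint 126.0 Mb) and just outside it Gm4129 (123.2 Mb). Just inside the count limit was Gm31793 (mean 11.9 counts) and just outside it Pmel (9.75 counts).

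A total of 4 groups of LSKs were sequenced, with 3 libraries in each. Tespa1-/- mice carried the B6.129S-Tespa1tm1Smoc allele, a targeted knockout crossed to C57BL/6 for more than 6 generations, and the labels describe the wild type mice as littermates. The methods also name normal C57BL/6 mice obtained from another institute, without saying which experiment used them. All mice were male and 8 to 10 weeks old. LSKs were taken either from untreated mice or at day 9 after 5-FU (5-fluorouracil, a drug that kills dividing blood cells and drives the surviving stem cells into cycle). The labels do not say that each library came from a separate mouse, so p-values measure the spread between these libraries. Library totals ran from 22118154 to 28275079 counts, and the neighbours together took 0.381% to 0.430% of them. None of the 10 LSK markers examined was at 0 in any group.

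Genes that lie next to a targeted allele are inherited with it: backcrossing replaces the genome of the donor strain by that of the recipient, but a stretch around the allele is held by selection for the allele itself. Neighbours can also share regulatory DNA with a deleted gene. For both reasons the genes beside a knockout are commonly inspected, although in a design with 1 allele and 1 wild type the effect of losing the protein cannot be told apart from that of any DNA that travels with the deletion. The strain origin of the flanking DNA was not tested. Between Tespa1 and the other genes on its centromeric side lies a large cluster of olfactory receptor genes, which are normally used in the olfactory epithelium. Of 67 olfactory receptor genes in the region, 0 reached the count limit, so that the neighbours with reads were 2 genes close to Tespa1 and 72 genes at 1.42 Mb or more.

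Tespa1, which encodes a protein first described in thymocyte T cell receptor signalling, was itself lower in Tespa1-/- LSKs but not at 0 (chr10:130322870-130364111, GRCm38). In untreated wild type LSKs it had 51.0, 43.1 and 46.5 CPM (counts scaled to the library total, with TMM factors) and in untreated Tespa1-/- LSKs 34.5, 34.9 and 34.9 CPM. After 5-FU it had 47.1, 55.0 and 57.2 CPM in wild type and 20.7, 19.6 and 17.2 CPM in Tespa1-/- LSKs. The groups did not overlap in either treatment. The log2 fold change, Tespa1-/- over wild type, was -0.42 (SE 0.09) without treatment and -1.47 (SE 0.12) after 5-FU, with adjusted p of 0.0316 and 9.38e-05 in edgeR's quasi-likelihood test over all genes. The untreated call was kept in 1 of 6 fits that each left out a library, the one without wild type library 2 (log2 fold change -0.47, adjusted p = 0.0403), and the call after 5-FU in 6 of 6. The counts cover the whole gene, so the table does not show which exons the remaining reads came from.

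In untreated LSKs, 2 of 73 neighbours tested were called at an adjusted p below 0.05 (2.74%), against 5.23% of all 17055 genes tested. Both were lower in Tespa1-/- LSKs (3.59% of all genes were), and 0 were higher (1.64% of all genes). The pair were Lrp1 (LDL receptor-related protein 1, a large endocytic receptor) and R3hdm2 (an R3H-domain protein). With a fold change above 1.5 required as well, 0 neighbours were called in edgeR (2.51% of all genes), while 16 had an unadjusted p below 0.05 (21.9% of the neighbours, 18.5% of all genes), 5 of them with such a fold change (6.85%, against 6.74%), and DESeq2, at the adjusted threshold without the fold requirement, called 3. Without wild type library 1, 2 or 3 the number called was 1, 0 and 2, and without any 1 of the Tespa1-/- libraries it was 0. Fits without a library hold fewer samples. The shares over all genes in these fits and in DESeq2 are not given here. Both genes overlap a gene on the opposite strand (Gm16217 for Lrp1, Gm23819 for R3hdm2). In the same libraries the summed level of 10 LSK markers was 1739 to 1802 CPM in wild type and 1420 to 1476 CPM in Tespa1-/- LSKs, with 3 of 10 called lower, and that of the B cell genes 58.2 to 66.8 CPM and 34.0 to 41.3 CPM, with 3 of 5 tested called lower. The sum of 6 monocyte and macrophage genes was 195 to 232 CPM and 238 to 249 CPM, with 2 called higher, 1 of 8 erythroid genes was called higher, and 0 of 2 T cell genes tested were called. Their part in the untreated calls was not tested.

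R3hdm2 had 139, 147 and 160 CPM in untreated wild type LSKs and 111, 114 and 117 CPM in untreated Tespa1-/- LSKs. All 3 Tespa1-/- libraries lay below all 3 wild type libraries, with a log2 fold change of -0.37 (SE 0.07, adjusted p = 0.0215). After 5-FU the genotypes overlapped at 104, 114 and 109 CPM against 98.6, 114 and 111 CPM, a log2 fold change of -0.01 with a 95% interval from -0.18 to 0.16. The difference between the treatments was 0.37 and was not called (adjusted p = 0.0671). It was called in DESeq2 (adjusted p = 0.0276) and in 1 of 12 fits without a library, that without untreated wild type library 1 (0.0422). The untreated call was kept in 2 of 6 fits without a library (adjusted p 0.0153 to 0.108).

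After 5-FU, 14 of 72 neighbours tested were called (19.4%), against 13.1% of all 17239 genes tested. Of these, 11 were higher in Tespa1-/- LSKs (15.3%, against 7.34% of all genes) and 3 were lower (4.17%, against 5.78%). Most of the differences were small: 4 of the 14 exceeded 1.5-fold (5.56% of the neighbours, 6.98% of all genes), namely Cd63 on the higher side and Ctdsp2, Nab2 and A730063M14Rik on the lower side. At an unadjusted p below 0.05 there were 21 neighbours (29.2%, against 26.7% of all genes), 6 of them above 1.5-fold (8.33%, against 11.7%). Counts of genes whose libraries did not overlap between the genotypes were also close to those of all genes, with 19 of 73 neighbours (26.0%, against 25.5%) untreated and 26 of 72 (36.1%, against 33.1%) after 5-FU. Fewer neighbours were called after 5-FU when a library was left out: 6, 7 and 8 without wild type library 1, 2 or 3, and 6, 5 and 7 without Tespa1-/- library 1, 2 or 3. Such fits hold fewer samples, and their share of calls over all genes is not given here. Cd63, B4galnt1 and Mars were called in each of these 6 fits, and the other 11 in 0 to 4 of them.

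**Figure D1:**
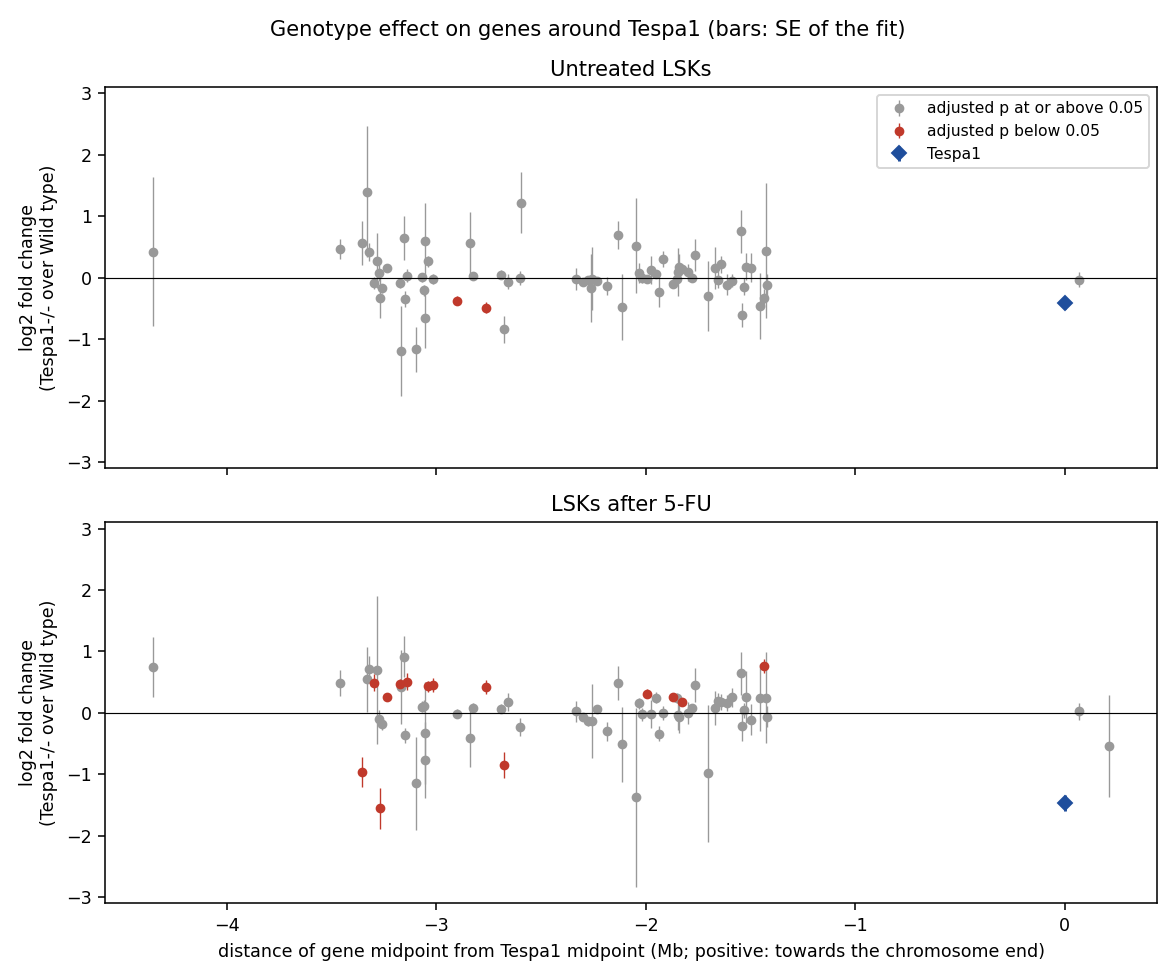
Log2 fold change of each neighbour (Tespa1-/- over wild type, vertical axis, bars: SE of the fit) against the distance of its midpoint from that of Tespa1 in Mb (horizontal axis), in untreated LSKs (upper panel) and after 5-FU (lower panel), with neighbours at an adjusted p below 0.05 in red and Tespa1 as a blue diamond. The nearest measured gene, the processed pseudogene Gm9770, lies on the zero line in both panels, 2 neighbours are called in the upper panel and 14 in the lower one.

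The genes nearest to Tespa1 showed no called difference in either treatment. Gm9770, a processed pseudogene 0.0694 Mb away on the telomeric side, had 22.8, 25.5 and 25.6 CPM in untreated wild type and 21.1, 25.2 and 25.2 CPM in untreated Tespa1-/- LSKs, and 23.9, 22.0 and 27.4 CPM against 23.6, 23.3 and 27.9 CPM after 5-FU. The genotypes overlapped in both treatments. Its log2 fold change was -0.04 (95% interval -0.32 to 0.25) untreated and 0.03 (-0.29 to 0.34) after 5-FU, so a change of 1.5-fold lay outside both intervals. A processed pseudogene is a copy of a gene that lies elsewhere. How reads that match both were assigned is not given, so the values of Gm9770 may include reads of that gene. Gm31793, at 0.214 Mb, had 8, 0 and 0 counts in untreated wild type, 22, 16 and 2 in untreated Tespa1-/-, 26, 23 and 8 in wild type after 5-FU and 17, 4 and 17 counts in Tespa1-/- after 5-FU. It was too low to be tested untreated, and its interval after 5-FU ran from -2.40 to 1.33. That interval excludes neither a rise nor a fall of 2-fold.

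The next genes lay at 1.42 to 1.44 Mb. Bloc1s1, a subunit of a complex that forms lysosome-related organelles, had a log2 fold change of -0.12 (95% interval -0.54 to 0.30) untreated and -0.06 (-0.46 to 0.33) after 5-FU. Rdh5, a retinol dehydrogenase that shares part of its span with Bloc1s1 on the same strand, had 1 to 32 counts per library and intervals that reached beyond 2-fold on both sides. Cd63, at 1.44 Mb, was the nearest neighbour with a called difference, and only after 5-FU.

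Called neighbours did not become more frequent toward Tespa1. In untreated LSKs the share called was 0 of 28 between 1 and 2 Mb, 2 of 21 between 2 and 3 Mb and 0 of 22 between 3 and 4 Mb. After 5-FU it was 4 of 28 (14.3%), 2 of 19 (10.5%) and 8 of 22 (36.4%) in the same bins, so the highest share was the farthest of the 3. Beyond the region, between 5 and 10 Mb, 2 of 23 chromosome 10 genes with the same count limit were called untreated and 4 of 20 after 5-FU. Over all other chromosome 10 genes the shares were 28 of 693 (4.04%) and 82 of 695 (11.8%). Across neighbours, Spearman's rank correlation between distance and the absolute log2 fold change was 0.18 untreated (n = 73 genes) and 0.37 after 5-FU (n = 72 genes), that is, larger differences lay farther from Tespa1. These genes share their libraries, and the rank correlation between the mean count and the absolute log2 fold change was -0.57 and -0.42, so low genes had the larger fitted differences. Among the 55 neighbours with a mean of at least 100 counts, the rank correlation with distance was 0.08 untreated and 0.37 after 5-FU.

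**Figure D2:**
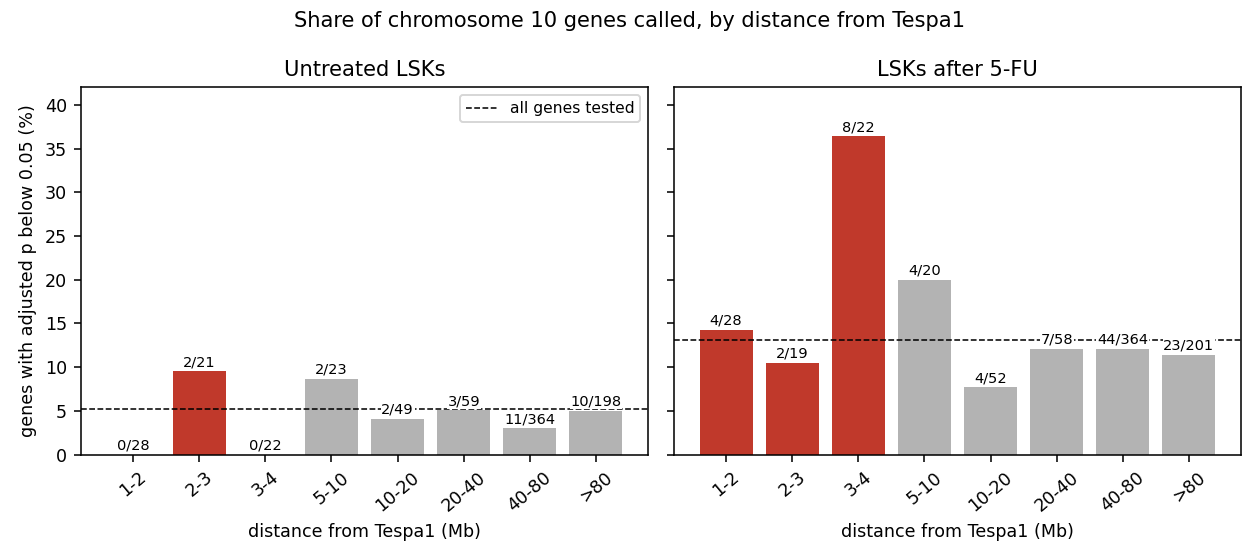
Percentage of chromosome 10 genes with an adjusted p below 0.05 (vertical axis) by distance from Tespa1 in Mb (horizontal axis), untreated (left) and after 5-FU (right), with the number called over the number tested above each bar, bins with at least 15 genes tested, neighbours in red, farther genes in grey and the share over all genes tested as a dashed line. After 5-FU the bin from 3 to 4 Mb stands at 36.4% and the bins nearer to Tespa1 at 14.3% and 10.5%.

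The 8 genes called after 5-FU between 3 and 4 Mb lay between 3.02 and 3.35 Mb from Tespa1. Of these, 6 were higher and 2 lower in Tespa1-/- LSKs. With distances taken between the nearest gene ends the bin held 7 of 21, among neighbours with a mean of at least 100 counts 7 of 15, and among those that overlap no other gene 2 of 7. After 5-FU, 13.1% of all genes tested were called, and 17% of all genes with a mean of at least 100 counts. The share over all genes without an overlap is not given here. Reads of 37 of the 74 neighbours could be mixed with those of a gene on the opposite strand, since the use of strand in counting is not given in the sources used here, and this holds for B4galnt1 (with Slc26a10), Arhgap9 (with Gli1), Mars (with Ddit3), Mettl1 (with Eef1akmt3) and Pip4k2c (with F420014N23Rik) among these 8.

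The sizes of the genotype effect over the neighbours were close to those over all genes. The median absolute log2 fold change was 0.16 over the neighbours and 0.21 over all genes tested in untreated LSKs, and 0.25 and 0.28 after 5-FU. The median signed log2 fold change was -0.01 untreated and 0.08 after 5-FU, against 0.01 and -0.01 over all genes. The 95% interval of the genotype effect lay within 1.5-fold for 36 of 73 neighbours untreated (49.3%, against 42.6% of all genes) and for 32 of 72 after 5-FU (44.4%, against 34.8%). For the others, a difference of 1.5-fold or more in at least 1 direction was not outside what these libraries allow.

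In the edgeR fits of each treatment on its own 6 libraries, no neighbour was called in the same direction in both treatments: 0 of 71 tested in both, against 2.03% of 16341 genes. The treatments share no library. At an unadjusted p below 0.05 in both, 7 of 71 moved the same way (9.86%, against 6.76% of all genes), and the fits by DESeq2 and on all 12 libraries together each called 1 (share over all genes not given for these fits). That gene was Nab2, a corepressor of the EGR transcription factors. It had 21.6, 21.4 and 15.3 CPM in untreated wild type and 14.1, 8.78 and 9.40 CPM in untreated Tespa1-/- LSKs. After 5-FU it had 19.2, 15.7 and 13.7 CPM in wild type and 9.43, 10.4 and 7.16 CPM in Tespa1-/- LSKs. The Tespa1-/- libraries lay below the wild type libraries in both treatments. The log2 fold change was -0.84 (SE 0.22, adjusted p = 0.0741) untreated and -0.84 (SE 0.21, adjusted p = 0.0265) after 5-FU, and the untreated adjusted p was 0.00696 in DESeq2 and 0.0475 on all 12 libraries. In fits without a library, the untreated difference was called in 0 of 6 (adjusted p 0.0501 to 0.248) and the difference after 5-FU in 2 of 6 (0.0353 to 0.0942). Nab2 overlaps Stat6 and Nemp1 on the opposite strand, and Stat6, a cytokine-activated transcription factor, had log2 fold changes of 0.05 and 0.06 with 95% intervals within 1.5-fold.

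Whether the genotype effect differed between the treatments was tested with the interaction of genotype and 5-FU on the 12 libraries. It was called for 4 of 74 neighbours (5.41%), against 5.01% of all 18696 genes tested, and each of the 4 was shifted toward a higher level in Tespa1-/- LSKs after 5-FU (3.02% of all genes were). These were Cd63, Lrp1, B4galnt1 and Smarcc2. Each of them was called in all 12 fits that left out a library. Per gene, the exact permutation test of 3 libraries against 3 cannot go below p = 0.1.

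Cd63 encodes a tetraspanin of late endosomes, lysosomes and secretory granules (chr10:128900989-128912822). It had 14.2, 17.9 and 14.1 CPM in untreated wild type, 12.5, 11.5 and 12.5 CPM in untreated Tespa1-/-, 20.1, 24.2 and 20.9 CPM in wild type after 5-FU and 36.5, 37.3 and 36.8 CPM in Tespa1-/- after 5-FU. The 3 Tespa1-/- libraries after 5-FU stood above every other library. For Cd63 the log2 fold change was -0.33 (SE 0.15, adjusted p = 0.304) untreated and 0.76 (SE 0.12, adjusted p = 0.00284) after 5-FU, and the difference between them was 1.09 (SE 0.18, adjusted p = 0.00345). Markers of mature cells moved with these libraries: the summed level of 10 neutrophil genes was 9.12 to 12.7 CPM in wild type and 1015 to 1029 CPM in Tespa1-/- LSKs after 5-FU, with 9 of 10 called higher. The sum of 8 erythroid genes was 351 to 365 CPM and 744 to 795 CPM, with 8 of 8 higher. The sum of 10 LSK markers was 1452 to 1520 CPM and 875 to 959 CPM, with 8 of 10 lower. That of 6 monocyte and macrophage genes was 262 to 277 CPM and 377 to 391 CPM, with 1 called higher and 1 lower, that of 6 B cell genes 248 to 255 CPM and 261 to 291 CPM, with 1 higher, and that of 6 T cell genes 29.5 to 38.6 CPM and 30.9 to 38.7 CPM, with 1 of 5 tested higher. Untreated, the neutrophil sum was 2.31 to 2.63 CPM in wild type and 6.81 to 8.02 CPM in Tespa1-/- LSKs, with 0 of 5 tested called by edgeR. These shifts accompany every comparison after 5-FU given here, and their part in the results was not tested. In bulk LSKs, fewer cells of a type and less RNA per cell cannot be told apart.

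Lrp1 was called in opposite directions in the treatments, which 0.196% of all genes tested in both were (chr10:127538161-127621148, 2.76 Mb from Tespa1). It had 70.1, 70.5 and 58.8 CPM in untreated wild type, 45.1, 48.4 and 47.4 CPM in untreated Tespa1-/-, 49.8, 48.9 and 53.0 CPM in wild type after 5-FU and 67.7, 78.2 and 57.3 CPM in Tespa1-/- after 5-FU. The genotypes did not overlap in either treatment, and untreated wild type stood near Tespa1-/- after 5-FU. The log2 fold change was -0.49 (SE 0.09, adjusted p = 0.0185) untreated and 0.42 (SE 0.12, adjusted p = 0.0426) after 5-FU, and the difference was 0.91 (SE 0.15, adjusted p = 0.00349). The untreated call was kept only without wild type library 3 (adjusted p = 0.00855; 0.0544 to 0.0959 without each of the others), and the call after 5-FU only without Tespa1-/- library 3 (0.0184; 0.0792 to 0.138 without each of the others). The call after 5-FU was also lost with library totals in place of TMM factors (adjusted p = 0.0558) and with no filter on low counts (0.0518).

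B4galnt1, a glycosyltransferase of ganglioside synthesis, lies 3.17 Mb from Tespa1 (chr10:127165225-127172330). It had 113, 99.99 and 118 CPM in untreated wild type, 101, 107 and 101 CPM in untreated Tespa1-/-, 90.7, 88.2 and 94.8 CPM in wild type after 5-FU and 134, 130.2 and 115 CPM in Tespa1-/- after 5-FU. The genotypes overlapped untreated and were apart after 5-FU. Its log2 fold change was -0.09 (95% interval -0.26 to 0.08) untreated and 0.47 (SE 0.08, adjusted p = 0.00332) after 5-FU, and the difference was 0.56 (SE 0.11, adjusted p = 0.00857). Slc26a10, which overlaps it on the opposite strand, had 4 to 101 counts per library.

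Smarcc2, a core subunit of the SWI/SNF (BAF) chromatin remodelling complexes, lies 1.87 Mb from Tespa1 (chr10:128459248-128490482). It had 298, 289 and 299 CPM in untreated wild type, 276, 263 and 278 CPM in untreated Tespa1-/-, 247, 269 and 266 CPM in wild type after 5-FU and 301, 328 and 304 CPM in Tespa1-/- after 5-FU. The Tespa1-/- libraries lay just below the wild type libraries untreated and above them after 5-FU. Its log2 fold change was -0.10 (95% interval -0.21 to -0.001, adjusted p = 0.267) untreated and 0.25 (SE 0.06, adjusted p = 0.0171) after 5-FU, and the difference was 0.36 (SE 0.07, adjusted p = 0.0093). The call after 5-FU was kept in 4 of 6 fits without a library (adjusted p 0.0348 to 0.0617). Smarcc2 and Cd63 overlap no other gene of the table.

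**Figure D3:**
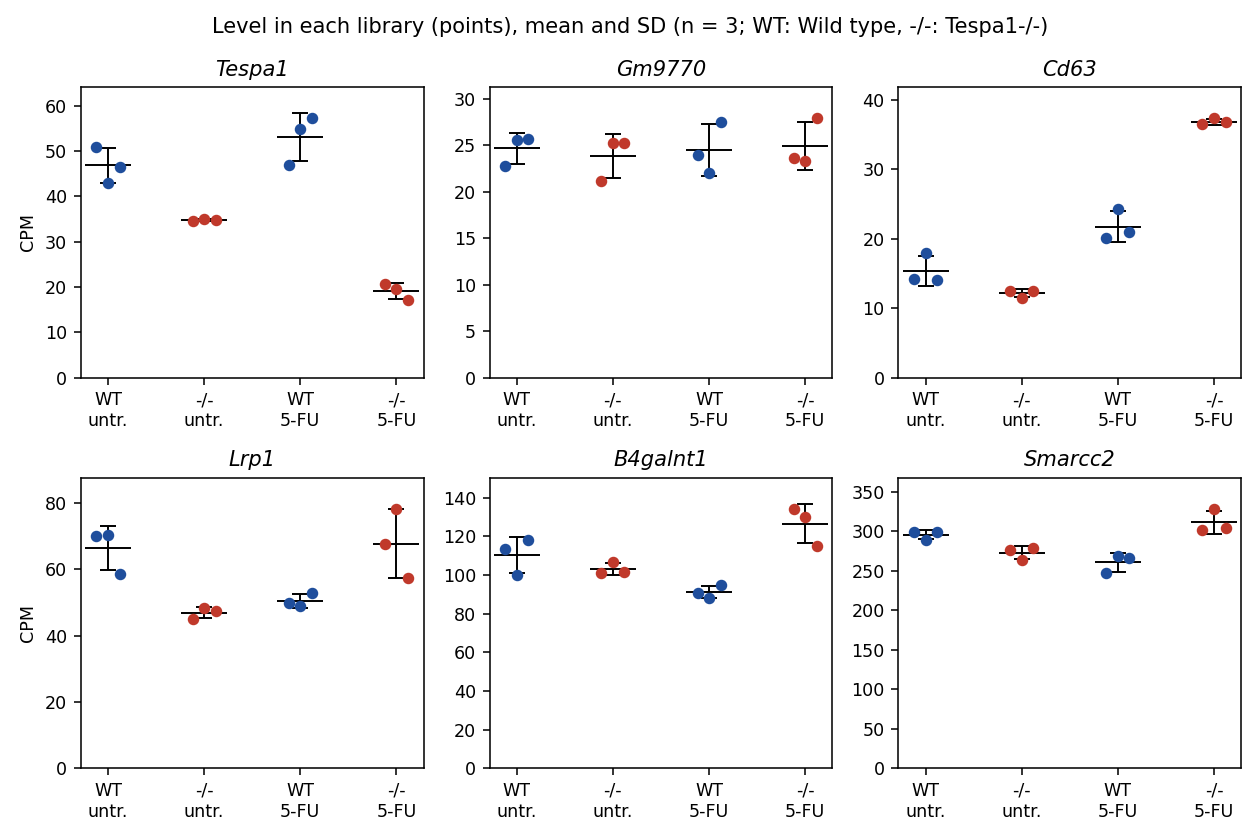
Level in CPM (vertical axis, from 0) of Tespa1, its nearest measured neighbour Gm9770 (a processed pseudogene) and the 4 neighbours whose genotype effect differed between treatments, in each library (points, wild type blue, Tespa1-/- red) with the mean and SD (n = 3), for untreated LSKs (untr.) and LSKs after 5-FU. Cd63 stands at 36.5 to 37.3 CPM in Tespa1-/- LSKs after 5-FU and at or below 24.2 CPM elsewhere, and Gm9770 lies between 21.1 and 27.9 CPM in all 4 groups.

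The 250 bases before the RefSeq start of 3 of these 4 genes are printed here because their levels shifted in the same direction under the interaction (GRCm38.p6, 5′ to 3′ on the gene's strand: chr10:128909095-128909344, plus strand, for Cd63, chr10:127621149-127621398, minus strand, for Lrp1, and chr10:128458986-128459235, plus strand, for Smarcc2). Capitals mark a match to 1 of 4 promoter motifs, searched on both strands: the E-box CACGTG, the GC box GGGCGG, the CCAAT box CCAAT and the TATA box TATAAA. The RefSeq start of Cd63 used here lies inside the gene span of the deposited table. The promoter set used here held no entry for B4galnt1.
Cd63: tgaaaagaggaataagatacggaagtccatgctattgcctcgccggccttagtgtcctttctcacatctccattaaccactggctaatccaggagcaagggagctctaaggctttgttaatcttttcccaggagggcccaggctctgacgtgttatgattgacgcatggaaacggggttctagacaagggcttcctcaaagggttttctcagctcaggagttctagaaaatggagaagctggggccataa
Lrp1: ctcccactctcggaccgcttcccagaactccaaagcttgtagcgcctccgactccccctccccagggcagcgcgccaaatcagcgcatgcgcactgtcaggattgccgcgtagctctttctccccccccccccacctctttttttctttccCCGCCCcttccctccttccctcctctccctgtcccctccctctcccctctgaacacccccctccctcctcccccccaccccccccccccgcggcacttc
Smarcc2: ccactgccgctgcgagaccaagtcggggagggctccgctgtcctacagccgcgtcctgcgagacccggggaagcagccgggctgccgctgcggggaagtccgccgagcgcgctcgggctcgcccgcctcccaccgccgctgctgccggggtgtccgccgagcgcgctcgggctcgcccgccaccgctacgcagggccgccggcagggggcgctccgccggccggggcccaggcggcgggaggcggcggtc
Of the 4 motifs, the windows of Cd63 and Smarcc2 held 0 matches and that of Lrp1 held 1, a GC box. The windows also differed in base composition, with 48.8%, 67.2% and 80.8% G and C in the order printed. Over all 32851 promoters in the RefSeq promoter set used here, 6.02% held the E-box, 32.7% the GC box, 33.8% the CCAAT box and 12.4% the TATA box. Of the 68 promoters found for 54 of the 74 neighbours, 7.35%, 51.5%, 42.6% and 8.82% did, with a median of 57.4% G and C against 52.4%.

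By function, 62 of the 74 neighbours fell into 8 role lists, and in each list most members were not called. Over all genes the median log2 fold change was 0.01 untreated and -0.01 after 5-FU. Of 10 genes listed as transcription factor and chromatin genes, R3hdm2 was lower untreated, and after 5-FU Smarcc2 was higher and Nab2 lower (3.59% of all genes were lower untreated, 7.34% higher and 5.78% lower after 5-FU), with list medians of -0.08 and 0.03. R3hdm2 is known here only as an R3H-domain protein, so the untreated call is not one of a known transcription or chromatin gene. Of 8 endoplasmic reticulum, lysosome and vesicle genes, 0 were called untreated (5.23% of all genes) and 3 were higher in Tespa1-/- than in wild type LSKs after 5-FU (7.34% of all genes), with list medians of -0.06 and 0.11: Cd63, Os9 (a lectin of endoplasmic reticulum-associated degradation) and Esyt1 (a membrane tether between endoplasmic reticulum and plasma membrane). Os9 had 182, 206 and 196 CPM in wild type and 226, 231 and 237 CPM in Tespa1-/- LSKs after 5-FU, a log2 fold change of 0.25 (SE 0.06, adjusted p = 0.0239). The 3 Tespa1-/- libraries stood above the 3 wild type libraries, but the call was kept in 1 of 6 fits without a library. The call of Esyt1 (log2 fold change 0.18, adjusted p = 0.0409) was kept in 0 of these 6 fits, and was lost with library totals (adjusted p = 0.0747) and with no filter on low counts (0.0699).

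Of 9 genes of RNA handling and protein synthesis, 0 were called untreated (5.23% of all genes) and 2 were higher in Tespa1-/- than in wild type LSKs after 5-FU (7.34% of all genes), with list medians of 0.00 and 0.16. Mars, the cytosolic methionyl-tRNA synthetase, had 64.8, 56.6 and 61.7 CPM in wild type and 75.6, 86.1 and 85.5 CPM in Tespa1-/- LSKs after 5-FU. The genotypes were apart there and also untreated, at 69.5, 65.0 and 56.2 CPM against 78.0, 71.8 and 77.3 CPM. The log2 fold change was 0.43 (SE 0.09, adjusted p = 0.0114) after 5-FU and 0.27 (adjusted p = 0.141) untreated. Mettl1, the catalytic subunit of a tRNA methyltransferase, had 16.1, 17.3 and 20.1 CPM in wild type and 25.4, 26.3 and 23.4 CPM in Tespa1-/- LSKs after 5-FU (log2 fold change 0.49, adjusted p = 0.0478). That call was kept in 1 of 6 fits without a library, and was lost with library totals (adjusted p = 0.0615) and with no filter on low counts (0.0717). The abundant members of this list were not called: Naca, a ribosome-associated chaperone, had log2 fold changes of -0.07 and -0.07, and Pa2g4, a growth-regulated ribosome-binding protein, 0.00 and 0.08, with all 95% intervals within 1.5-fold. By FPKM, which is scaled to gene length, Pa2g4 and Naca were the highest of the neighbours in untreated wild type LSKs, at means of 100.9 and 63.7.

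Of 10 signalling enzymes and small GTPase regulators, 0 were called untreated (5.23% of all genes), and among the libraries after 5-FU Pip4k2c (a phosphatidylinositol phosphate kinase) and Arhgap9 were higher and Ctdsp2 (a small C-terminal domain phosphatase) lower in Tespa1-/- than in wild type. Among all genes 7.34% were higher and 5.78% lower, and the list medians were 0.01 and 0.18. Pip4k2c had 28.6, 32.0 and 38.5 CPM in wild type and 42.4, 51.3 and 47.3 CPM in Tespa1-/- LSKs after 5-FU (log2 fold change 0.51, adjusted p = 0.0343). Arhgap9 had 39.0, 49.6 and 45.0 CPM against 62.1, 64.9 and 56.1 CPM (log2 fold change 0.45, adjusted p = 0.0257). In both genes the genotypes were apart after 5-FU, and each call was kept in 2 of 6 fits without a library (adjusted p up to 0.121 and 0.0949). Ctdsp2 was uneven among replicates, with 33.5, 32.1 and 49.7 CPM in untreated wild type, 33.8, 41.4 and 94.3 CPM in untreated Tespa1-/-, 52.2, 114 and 69.5 CPM in wild type after 5-FU and 45.2, 36.2 and 38.9 CPM in Tespa1-/- after 5-FU. Its log2 fold change after 5-FU was -0.97 (SE 0.24, adjusted p = 0.0286, and 0.0847 on all 12 libraries in one fit), called in 2 of 6 fits without a library, and its untreated value was 0.57 with an interval from -0.26 to 1.39. Dgka, a diacylglycerol kinase, had log2 fold changes of -0.12 and 0.16 that were not called.

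Of 9 genes listed as metabolic and mitochondrial, 0 were called untreated (5.23% of all genes) and Cs and B4galnt1 were higher in Tespa1-/- than in wild type LSKs after 5-FU (7.34% of all genes), with list medians of 0.02 and 0.17. The list also holds Nemp1, a nuclear envelope protein, and the median after 5-FU is its value. Cs, the citrate synthase of the tricarboxylic acid cycle, had 137, 119 and 114 CPM in wild type and 149, 159 and 152 CPM in Tespa1-/- LSKs after 5-FU (log2 fold change 0.31, adjusted p = 0.0295), a call kept in 1 of 6 fits without a library. Shmt2, the mitochondrial serine hydroxymethyltransferase, had log2 fold changes of 0.02 and 0.08 with intervals within 1.5-fold. Of 8 receptors, ligands and secreted proteins (8 tested untreated and 7 after 5-FU), Lrp1 was the one called in either treatment (5.23% and 13.1% of all genes were), with list medians of 0.40 and 0.42. The median after 5-FU is the value of Lrp1 itself. The list holds low genes such as Lrig3, with 0 to 78 counts per library and an untreated interval from -2.33 to 3.18. Erbb3, a receptor of the EGF receptor family, had 3.34 to 9.13 CPM and log2 fold changes of 0.37 and 0.45 that were not called. In the lists of cell cycle and DNA repair (3 genes, Cdk2 and Nabp2 among them) and of cytoskeleton and motors (5 genes, Myl6 and Myl6b among them), 0 genes were called in either treatment (5.23% and 13.1% of all genes). Cdk2, a cyclin-dependent kinase, had log2 fold changes of 0.22 and 0.18 and Nabp2, a single-strand DNA binding protein, -0.24 and -0.34. Myl6, a myosin light chain, had -0.03 and 0.24, and the related Myl6b 0.10 and -0.03. Outside the lists, the lincRNA A730063M14Rik had 4.43, 5.39 and 4.69 CPM in wild type and 2.25, 1.23 and 1.44 CPM in Tespa1-/- LSKs after 5-FU. The genotypes were well apart, and its log2 fold change of -1.55 (SE 0.33, adjusted p = 0.0146) was the largest among called neighbours. The call was kept in 3 of 6 fits and lost without wild type library 2 or Tespa1-/- library 2 or 3 (adjusted p 0.0528 to 0.0544).

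**Figure D4:**
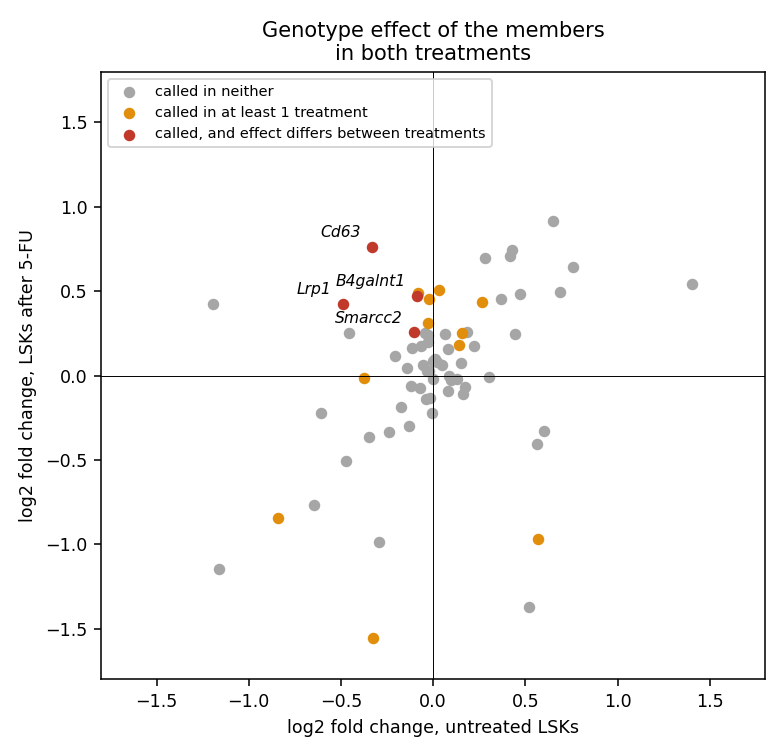
Log2 fold change of each of the 71 neighbours tested in both treatments, Tespa1-/- over wild type, in untreated LSKs (horizontal axis) and after 5-FU (vertical axis), coloured by whether the neighbour was called in at least 1 treatment and whether its effect differed between treatments at an adjusted p below 0.05. Of the 71 points, 40 lie in the quadrants of equal sign (56.3%, against 58.5% of all genes), and the 4 labelled genes lie left of 0 untreated and above 0 after 5-FU.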

How the data were processed

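RNA-seq of LSKs was used in 4 groups of 3 libraries, grouped by their labels. Libraries after irradiation were not used here. The authors deposited a table of 53465 genes with raw counts per gene and library, used for all tests, and the FPKM values the authors made from them (counts per gene length and library total), used only to compare levels between genes. Libraries were stranded, poly-A selected and paired-end. The submitters' processing notes name CASAVA 1.8, HISAT2, StringTie, edgeR and GRCm38, without their roles. How reads were assigned to genes, and whether by strand, is not given in the sources used here. Positions are those of the table, and all 74 neighbours lie at the same position in GENCODE M21. A symbol turned into a date by a spreadsheet was read as March9 from its gene ID. There were 0 unused per-sample columns.

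The genotype tests ran on the counts in edgeR 4.0.16 under R 4.3.3 (filterByExpr with a minimum count of 10, TMM, glmQLFit and glmQLFTest) on the 6 libraries of each treatment with genotype as the factor, and on the 12 libraries for the interaction. All genes were fitted, and p-values were adjusted over them by Benjamini-Hochberg. "Called" means an adjusted p below 0.05 and "tested" means that the gene passed the filter. Intervals are 95% intervals of the fitted log2 fold change. CPM used TMM factors over the 12 libraries. Scaled to the library totals alone, without these factors, 3 counts equal 0.106 to 0.136 CPM. The floor of 3 counts covers counting error only. Distances were taken between gene midpoints.

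The members, role lists and rules were chosen with earlier results of these data known. Genes were named by rule: the 5 largest rises and falls among those called in each treatment, the 5 nearest to Tespa1, those called in both treatments with opposite signs or in the interaction, and the first 2 measured members of each role list. Mars and Esyt1 were named after their values were seen, and so were overlapping genes.

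The tests were run on simulated counts with 100 genes changed 1.5-fold and 100 changed 3-fold. The untreated comparison recovered 27% and 74% of them, with 8.18% of calls false, over 16973 genes. The comparison after 5-FU recovered 33% and 67% (5.66% false, 17189 genes) and the interaction 7% and 62% (2.82% false, 18413 genes). These values are for edgeR. On the same counts DESeq2 recovered 34% and 77% untreated, 38% and 71% after 5-FU, and 12% and 62% for the interaction. Its shares of false calls were 12.6%, 12.1% and 16.9%. The simulation changed fewer genes than were called in the data, and drew every gene at the trend of spread for its level. These rates may therefore differ from those of the tests here. Alternatives were DESeq2 1.42.0, RLE factors, library totals, other filters, a single fit of the 12 libraries, a block for the replicate numbers, fits that omit 1 library, other thresholds, and neighbours without overlapping genes. Tables were made with pandas 2.3.3 and SciPy 1.17.1 in Python 3.11, and figures with matplotlib 3.10.9.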

Additional observations from a re-analysis of the deposited data

Results flagged for a closer look

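The genotype effect differed between untreated LSKs and LSKs after 5-FU in 4 neighbours, by edgeR's quasi-likelihood test of the interaction over all genes. The difference of the log2 fold changes, after 5-FU minus untreated, was 1.09 for Cd63, 0.91 for Lrp1, 0.56 for B4galnt1 and 0.36 for Smarcc2. The share of neighbours concerned, 4 of 74 (5.41%), was close to the 5.01% of all genes tested. In the same libraries after 5-FU, 9 of 10 neutrophil and 8 of 8 erythroid markers were called higher and 8 of 10 LSK markers lower in Tespa1-/- than in wild type, and untreated 3 of 10 LSK markers were called lower. Their part in these values was not tested.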

How the results depend on the processing

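The number of neighbours called untreated (2) became 1 with the replicate block, 0 with a fold change above 1.5 added, 5 at an unadjusted p below 0.05 with that fold change and 0 among neighbours that overlap no other gene, and 0 to 2 when a library was left out. After 5-FU (14) it became 9, 4, 6 and 4 under the same settings, and 5 to 8 when a library was left out. For the interaction (4), DESeq2 called 8, and 4 to 5 were called when a library was left out. The DESeq2 share over all genes is not given here. On simulated counts 16.9% of its interaction calls were false, against 2.82% in edgeR. For the count in the same direction in both treatments (0), DESeq2, all 12 libraries in one fit, and the unadjusted p with the fold change each gave 1, while leaving out a library gave 0 to 0. By distance, the neighbours without overlaps gave 0 called untreated between 2 and 5 Mb, and after 5-FU 2 called under 2 Mb and 2 between 2 and 5 Mb. The log2 fold change of Tespa1 was -0.41 untreated with the replicate block, no longer past the threshold, ran from -0.47 to -0.36 untreated and from -1.54 to -1.39 after 5-FU when a library was left out. The causes of these changes were not tested, except that neighbours without overlaps are fewer genes and fits without a library hold fewer samples. No value changed sign under these settings while called. For single named genes, 1177 values stayed on their side of the threshold, 69 fell short of it and 12 passed it newly.

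The replicate numbers of the labels do not pair the libraries: same-numbered libraries of the genotypes had correlations of their deviations between -0.08 and 0.03. With the replicate block, Lrp1 had an adjusted p of 0.0532 untreated and 0.0859 after 5-FU, and the other calls after 5-FU lost were those of Mettl1 (0.0975), Ctdsp2 (0.0656), Cs (0.0549) and Esyt1 (0.094). The interaction of R3hdm2 was newly called with the block (0.0437). On simulated counts with 3 libraries a group, 27% to 33% of genes changed 1.5-fold and 67% to 74% of genes changed 3-fold were called by edgeR within a treatment. Fewer genes were changed there than were called in the data, so these rates may differ from those of the tests here.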
